A study of Mus musculus with 12 samples.

Results

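Keratins are the proteins that form the intermediate filaments of epithelial cells. Each filament pairs a type I with a type II keratin, and the pair in use changes as an epidermal cell moves outward. Dividing cells of the basal layer make Krt5 (type II) with Krt14 (type I), and Krt15 is a further type I keratin of basal cells and of hair follicle stem cells. Cells that leave the basal layer switch to Krt1 (type II) with Krt10 (type I). Krt2 and Krt77 are type II keratins of the suprabasal layers, Krt2 being a late one. These 7 layer keratins of the epidermis between the hair follicles were chosen by gene symbol, out of 36707 genes measured under 1 symbol and 65956 transcript clusters in all. Each of the 7 had a single cluster, which stood for it.

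The measurements came from keratinocytes sorted by flow cytometry from the skin of FVB/N mice on postnatal day 4. The 12 arrays fell into 4 groups of 3, namely bitransgenic basal, wild-type basal, bitransgenic suprabasal and wild-type suprabasal. Progerin, the shortened lamin A behind Hutchinson-Gilford progeria, is named in the series title, but the labels describe neither the transgenes nor the promoter that drives them. Arrays are named here by the code in their titles. Codes X667_05 and X721_05 occur in both bitransgenic layers, X722_07 only in basal and X682_05 only in suprabasal bitransgenic cells. All 3 wild-type codes, X667_06, X682_11 and X721_08, occur in both layers. Whether each code is an animal of its own is not labelled, so the p-values reflect the spread among these samples only.

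Of the 7 genes, 4 are shown with the 150 bases before their annotated start, a basal keratin and 3 suprabasal ones. No such window was at hand for Krt1 and Krt15. The annotated start of Krt14 lay 1518 bases inside its probed transcript, so its window is not shown either. The 4 were thus not chosen to contrast the layers. The sequences are those of RefSeq on GRCm38.p6, minus strand, 5′ to 3′, and the capitals mark a stretch rich in T and A that begins 28 to 30 bases before the start.
Krt5 (basal, chr15:101712906-101713055): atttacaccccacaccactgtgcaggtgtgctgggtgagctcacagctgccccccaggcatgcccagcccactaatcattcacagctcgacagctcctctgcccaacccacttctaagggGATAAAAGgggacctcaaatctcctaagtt
Krt10 (suprabasal, chr11:99389365-99389514): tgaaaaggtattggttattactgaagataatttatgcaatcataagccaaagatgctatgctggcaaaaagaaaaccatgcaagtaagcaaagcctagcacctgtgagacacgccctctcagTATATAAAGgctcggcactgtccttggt
Krt2 (suprabasal, chr15:101818170-101818319): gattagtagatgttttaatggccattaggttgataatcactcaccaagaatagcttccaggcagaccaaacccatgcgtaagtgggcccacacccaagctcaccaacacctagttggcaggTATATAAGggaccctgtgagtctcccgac
Krt77 (suprabasal, chr15:101869706-101869855): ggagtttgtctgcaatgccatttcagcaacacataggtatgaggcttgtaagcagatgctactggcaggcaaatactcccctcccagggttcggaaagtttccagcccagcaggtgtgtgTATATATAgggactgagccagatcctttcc
The 3 suprabasal genes hold TATATA, which occurs on either strand in 2.97% of 32851 RefSeq windows of this length. Krt5 holds ATAAAAG in the same place, a word found in 3.01% of the windows. These words were picked after the sequences had been read, and a match is a description of the letters only. The AP-1 word TGANTCA (4.24% of windows) and the AP-2 word GCCNNNGGC (9.61%) were in none of these windows, while the short KLF word CACCC (37.4%) was in those of Krt5 and Krt2.

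The genes lie in the keratin clusters of chromosomes 15 (type II) and 11 (type I), all on the minus strand of mm10. On chromosome 15 the probed transcript of Krt5 runs from 101707070 to 101712891, that of Krt2 from 101810689 to 101818169, that of Krt1 from 101845426 to 101850786 and that of Krt77 from 101858732 to 101869705. On chromosome 11 Krt10 runs from 99385254 to 99389364, Krt15 from 100131758 to 100135949 and Krt14 from 100203162 to 100207548. Between 83 and 130 probes measure each of them.

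The highest signal of an array lay between 13.63 and 13.89 (log2) and its median between 5.28 and 5.46. The background of an array was read as the 95th percentile of its 5222 intronic control sets, which lay between 8.04 and 8.81. Of the layer keratins, 6 were above that mark on all 12 arrays, and Krt2 on 0 of 12. Keratinocyte markers were high in all groups, but that list itself holds Krt5, Krt14, Krt1 and Krt10 and is no separate evidence beside them. The melanocyte markers, by contrast, separated the layers, with a summed signal of 9.30 to 10.30 in bitransgenic basal and 9.12 to 9.73 in wild-type basal arrays, against 11.05 to 14.91 in bitransgenic suprabasal and 13.17 to 14.68 in wild-type suprabasal arrays (log2). In suprabasal arrays 7 of the 8 melanocyte markers were above background on at least 1 array of each genotype, the exception being Sox10. Among 7 fibroblast markers Vim alone was above background, in suprabasal arrays. The measured markers of Merkel, endothelial and erythroid cells and of Langerhans and other immune cells were above background on no array. Just 1 of 3 erythroid markers and 5 of 7 Langerhans and immune markers were measured under 1 symbol. In each layer 2 of the 3 bitransgenic arrays, but 0 of the 3 wild-type arrays, had the female pattern of high Xist and low Ddx3y, X721_05 being the bitransgenic exception.

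Krt5 was close to the top of the scale in basal cells of both genotypes. Signals of 13.44, 13.49 and 13.42 were read in the bitransgenic basal arrays (X667_05, X721_05, X722_07), against 13.54, 13.50 and 13.52 in wild-type basal arrays (X667_06, X682_11, X721_08). In bitransgenic suprabasal arrays it was 13.32, 13.19 and 12.20 (X667_05, X682_05, X721_05), and in wild-type suprabasal arrays 13.38, 13.14 and 13.02. Every basal array thus lay above every suprabasal one, and a single suprabasal array, bitransgenic X721_05, stood well below the rest. The distance of Krt5 to the highest signal was 0.14 to 0.28 in bitransgenic basal, 0.19 to 0.21 in wild-type basal, 0.48 to 1.61 in bitransgenic suprabasal and 0.31 to 0.87 in wild-type suprabasal arrays.

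Krt14, its type I partner, followed the same order. It measured 13.34, 13.47 and 13.38 in bitransgenic basal arrays, against 13.40, 13.38 and 13.49 in wild-type basal arrays. It measured 13.26, 13.15 and 12.71 in bitransgenic suprabasal arrays and 13.29, 13.13 and 13.05 in wild-type suprabasal arrays. Here too the layers did not overlap and X721_05 was the lowest suprabasal array, while the basal groups overlapped each other. Krt14 came within 0.16 to 0.37 of the highest signal in bitransgenic basal, 0.22 to 0.33 in wild-type basal, 0.53 to 1.10 in bitransgenic suprabasal and 0.40 to 0.84 in wild-type suprabasal arrays. The pair kept a correlation of 0.967 over the 12 arrays and of 0.963 after the group means were removed.

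Krt15 had the widest spread of the 7 within groups. Its signal was 11.65, 12.17 and 12.06 in bitransgenic basal arrays, against 13.06, 11.71 and 13.15 in wild-type basal arrays. Suprabasal cells gave 11.22, 11.19 and 10.93 in bitransgenic and 13.03, 11.52 and 12.76 in wild-type arrays. The wild-type arrays thus fell apart in both layers, X682_11 being more than 1 log2 unit below the other 2, whereas the bitransgenic arrays stayed together. In suprabasal cells all 3 bitransgenic arrays were below all 3 wild-type arrays, but in basal cells X682_11 lay among the bitransgenic arrays. The within-group SD of Krt15 was 0.592, above that of 98.7% of all clusters, whose median was 0.117. Its distance to the highest signal was 1.46 to 2.06 in bitransgenic basal, 0.56 to 2.0 in wild-type basal, 2.49 to 2.88 in bitransgenic suprabasal and 0.66 to 2.16 in wild-type suprabasal arrays.

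Krt1, the first suprabasal type II keratin, was high in cells sorted as basal too. It measured 12.40, 12.80 and 12.55 in bitransgenic basal arrays, against 13.05, 12.28 and 13.09 in wild-type basal arrays. Suprabasal cells gave 12.87, 12.67 and 13.06 in bitransgenic and 12.92, 12.25 and 13.44 in wild-type arrays. The 4 groups overlapped, and the lowest wild-type array was X682_11 in both layers. Krt1 was 0.83 to 1.31 below the highest signal in bitransgenic basal, 0.62 to 1.43 in wild-type basal, 0.75 to 1.01 in bitransgenic suprabasal and 0.45 to 1.43 in wild-type suprabasal arrays.

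Krt10, the type I partner of Krt1, gave 12.91, 13.16 and 12.81 in bitransgenic basal arrays, against 13.30, 12.60 and 13.37 in wild-type basal arrays. In suprabasal arrays it gave 13.16, 12.99 and 13.36 in bitransgenic and 13.41, 12.87 and 13.50 in wild-type cells. The groups overlapped again, with X682_11 lowest in each wild-type group. The distance of Krt10 to the highest signal was 0.47 to 0.89 in bitransgenic basal, 0.34 to 1.11 in wild-type basal, 0.45 to 0.69 in bitransgenic suprabasal and 0.28 to 0.81 in wild-type suprabasal arrays. Krt1 and Krt10 correlated at 0.93 over the arrays and at 0.934 within groups.

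Krt77 was the layer keratin above background that stayed furthest from the top of the scale. Its signal was 9.64, 10.04 and 9.17 in bitransgenic basal arrays, against 10.41, 9.55 and 10.22 in wild-type basal arrays. It was 10.13, 10.04 and 10.86 in bitransgenic suprabasal arrays and 10.67, 10.14 and 11.48 in wild-type suprabasal arrays. Suprabasal means were higher in both genotypes, yet the bitransgenic layers met at 10.04 and the wild-type layers overlapped. Its distance to the highest signal ran between 2.41 and 4.53.

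Krt2 was not above background on any array. It measured 5.32, 5.52 and 5.42 in bitransgenic basal arrays, against 5.60, 5.31 and 5.36 in wild-type basal arrays. The suprabasal values were 5.45, 5.39 and 5.18 in bitransgenic and 5.60, 5.45 and 5.58 in wild-type cells. Relative to the background mark of their array these values lay at -3.63 to -2.59. Differences of Krt2 are printed below with those of the other members, but no fold or direction is read from them. In mouse skin Krt2 is known mainly from ear, tail and sole epidermis.

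**Figure D1:**
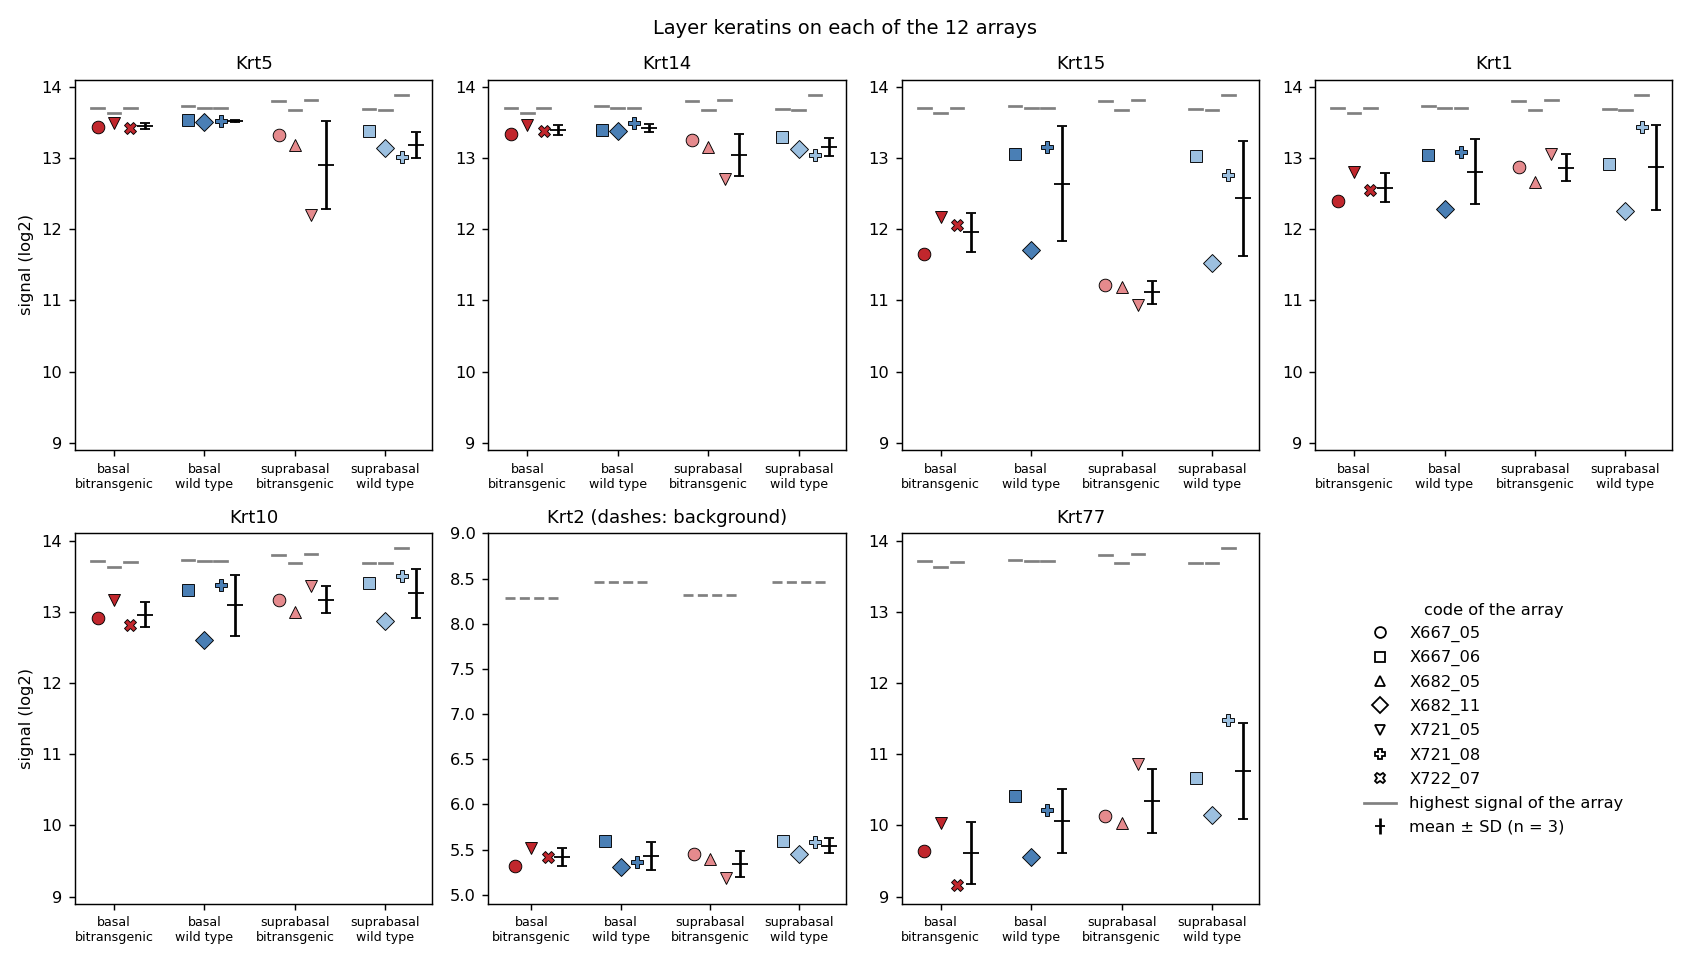
Signals (log2) of the 7 layer keratins on each of the 12 arrays, in 4 groups of 3, with marker shape giving the code of the array and crosses the mean ± SD. Grey lines are the highest signal of each array, or for Krt2 the group mean of the background mark; Krt5 and Krt14 sit under the top in basal arrays, and Krt15 splits the wild-type arrays.

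The comparison of layers asks how far the sorted basal and suprabasal cells differ in the keratins that define them. In wild-type skin Krt5 and Krt14 had higher means in basal cells and Krt77 a higher mean in suprabasal cells, by less than 1 log2 unit, and none of these passed the test. Krt5 was 13.52 ± 0.02 in basal and 13.18 ± 0.18 in suprabasal cells (SD, n = 3 each), a difference of 0.34 ± 0.231 (SE) with limma's adjusted p = 0.404. Krt14 was 13.42 ± 0.06 in basal and 13.16 ± 0.12 in suprabasal cells, a difference of 0.27 ± 0.124 with limma's adjusted p = 0.231. These standard errors rest on the spread of all 4 groups, bitransgenic suprabasal arrays included, where Krt5 had an SD of 0.61. Without bitransgenic suprabasal X721_05 limma's adjusted p was 0.0556 for Krt5 and 0.072 for Krt14, in a fit that called 2903 clusters. The authors' deposited table gave p = 0.02633 (q = 0.138) for Krt5 and p = 0.02451 (q = 0.1359) for Krt14. Krt77 was 10.06 ± 0.45 in basal and 10.76 ± 0.68 in suprabasal cells, a difference of -0.70 ± 0.366 with limma's adjusted p = 0.279. The differences of Krt15 (0.20), Krt10 (-0.17) and Krt1 (-0.06) were smaller than their standard errors, and each of these 3 changes sign when 1 wild-type array is left out (Krt15 to -0.255 and Krt10 to 0.075). Of the 7, 0 passed an adjusted p of 0.05, a mark that 957 clusters (1.45%) passed, and 3600 with the codes as a random replicate block, while 22.8% had an unadjusted p under 0.05. Krt5 and Krt14, 2 of the 7, did not overlap between the layers. The same held for 27.5% of all clusters and, with higher basal values, for 7.38%. Among the 4093 clusters above background on all arrays that share was 18.9%, and 79% of the 4093 had a higher mean in basal cells.

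In bitransgenic skin the basal keratins had higher means in basal cells, by 0.36 to 0.85, and again none passed the test. Krt5 was 13.45 ± 0.04 in basal and 12.90 ± 0.61 in suprabasal cells, a difference of 0.55 (95% interval 0.03 to 1.06) with limma's adjusted p = 0.643. Krt14 was 13.40 ± 0.07 in basal and 13.04 ± 0.29 in suprabasal cells, a difference of 0.36 (0.08 to 0.63) with limma's adjusted p = 0.605. Krt15 was 11.96 ± 0.27 in basal and 11.11 ± 0.16 in suprabasal cells, a difference of 0.85 (-0.09 to 1.78) with limma's adjusted p = 0.694. These 3 did not overlap between the bitransgenic layers, which was also the case for 12.4% of all clusters, for 8.08% with higher basal values, and for 6.35% with higher basal values among those above background. Krt77 was 9.62 ± 0.44 in basal and 10.34 ± 0.45 in suprabasal cells, a difference of -0.73 (-1.54 to 0.08) with limma's adjusted p = 0.697. The adjusted p stayed above 0.05 for all 7, as it did for 65956 of 65956 clusters (0% called), although 7.45% of clusters had an unadjusted p under 0.05. Without the X721_05 suprabasal array the differences were 0.195 for Krt5 and 0.192 for Krt14, and 0.755 for Krt15.

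The test of genotype by layer compared the layer differences themselves. It gave 0.21 (95% interval -0.52 to 0.93) for Krt5, 0.09 (-0.30 to 0.48) for Krt14 and 0.64 (-0.68 to 1.96) for Krt15, the bitransgenic layer difference minus the wild-type one. None of the 7 passed, nor did any cluster (0% called, with 10.2% at an unadjusted p under 0.05). The lowest adjusted p among the 7 was 0.634, for Krt2, which was at background. A wider gap between layers in bitransgenic cells was therefore not shown for any layer keratin.

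Arrays of 1 code allow the layers to be compared within a code. Krt5 was higher in the basal array of all 5 codes that occur in both layers, by 0.12 and 1.29 in the bitransgenic codes X667_05 and X721_05 and by 0.16, 0.36 and 0.50 in the wild-type codes X667_06, X682_11 and X721_08. Krt14 was also higher in 5 of 5, by 0.08 and 0.76 in bitransgenic and 0.11, 0.25 and 0.44 in wild-type codes. For Krt15 the basal array was higher in 5 of 5 as well, by 0.43 and 1.24 in bitransgenic and 0.03, 0.19 and 0.39 in wild-type codes. All 3 basal keratins thus had their widest gap in X721_05 among the bitransgenic codes and in X721_08 among the wild-type codes. Krt10 ran the other way in 5 of 5, with basal minus suprabasal differences of -0.25 and -0.20 in bitransgenic and -0.11, -0.27 and -0.13 in wild-type codes. Krt77 was likewise lower in the basal array of 5 of 5, by -0.49 and -0.82 in bitransgenic and -0.26, -0.59 and -1.26 in wild-type codes. Krt1 was lower in both bitransgenic basal arrays (-0.47 and -0.26) and mixed in wild type (0.13, 0.03 and -0.35). The same sign in 5 of 5 codes is a description, and how many of all clusters keep their sign in 5 of 5 was not counted. Of the 4093 clusters above background on all arrays, 79% had a higher basal mean in wild-type and 55.3% in bitransgenic cells. With the codes as a random block the smallest adjusted p in limma of the 7 between wild-type layers was 0.181, for Krt14.

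**Figure D2:**
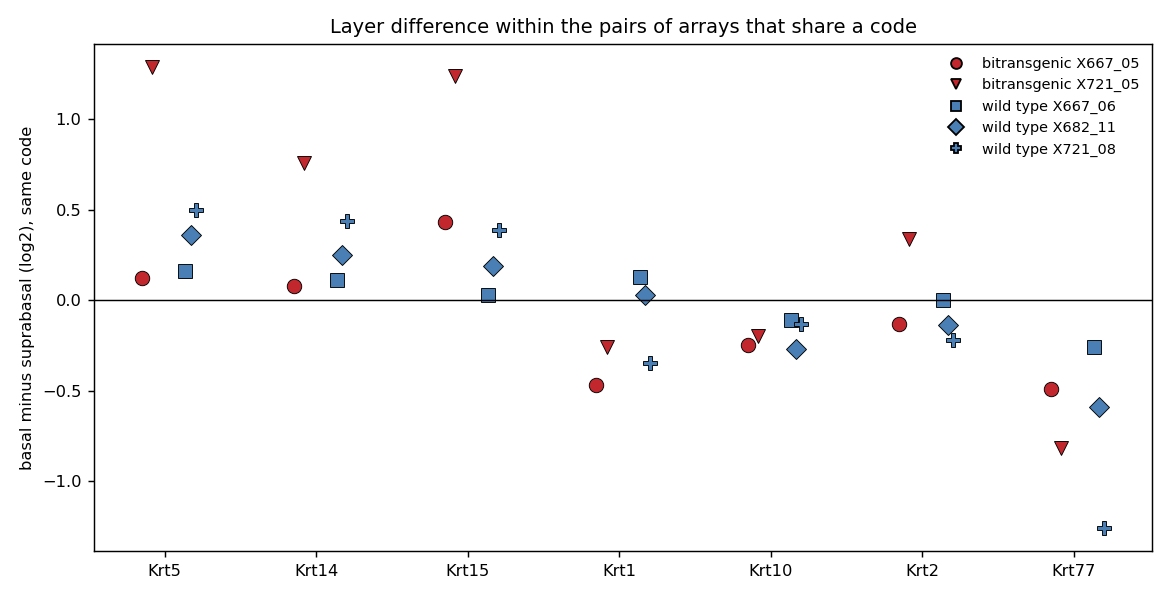
Basal minus suprabasal signal (log2) of each layer keratin within the 5 codes that occur in both layers, bitransgenic codes to the left of the wild-type codes. Krt5, Krt14 and Krt15 lie above 0 and Krt10 and Krt77 below 0 in 5 of 5 codes; Krt1 lies on both sides.

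The comparison of bitransgenic with wild-type cells asks what the transgenes change within a layer. In basal cells Krt15 was 11.96 ± 0.27 in bitransgenic and 12.64 ± 0.81 in wild-type arrays, a difference of -0.68 (95% interval -1.61 to 0.25) with limma's adjusted p = 0.504. Krt77 was 9.62 ± 0.44 in bitransgenic and 10.06 ± 0.45 in wild-type arrays, a difference of -0.44 (-1.25 to 0.37). Krt1 (-0.22), Krt10 (-0.13), Krt5 (-0.07), Krt14 (-0.03) and Krt2 (0) differed by less than their standard errors, which rest on the spread of all 4 groups. The SD of Krt5 was just 0.04 in bitransgenic and 0.02 in wild-type basal arrays. For Krt5 the authors' deposited table gave p = 0.04163 with q = 0.3713. Without bitransgenic suprabasal X721_05 its adjusted p in limma was 0.735. Krt5 was the single layer keratin whose basal genotypes did not overlap, against 16.8% of all clusters, 5.01% with lower bitransgenic values, and 11.5% with lower bitransgenic values among those above background. That gap is 0.01 log2 wide, which is the last decimal the values carry. None of the 7 was called, among 0% of clusters called and 13.1% at an unadjusted p under 0.05.

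In suprabasal cells the difference of Krt15 was the largest of the 7. Krt15 was 11.11 ± 0.16 in bitransgenic and 12.44 ± 0.81 in wild-type arrays, a difference of -1.32 ± 0.422 (SE), which is a 0.40-fold signal. Its 95% interval was -2.26 to -0.39 and its unadjusted p in limma 0.00989, but after adjustment over all clusters p was 0.866. A smaller p was found for 0.74% of clusters, in a comparison where 5.22% had an unadjusted p under 0.05 and 0% were called. Krt15 was the single layer keratin whose suprabasal genotypes did not overlap, against 12.3% of clusters, 9.79% with lower bitransgenic values, and 1.88% with lower bitransgenic values among those above background on all arrays. The difference was -1.31 with a term for the sex pattern of the arrays and -1.19 with the background mark as a term. All wild-type arrays had the male pattern, so the sex term rests on the bitransgenic code with that pattern, X721_05. That code had the lowest suprabasal value, 10.93, but in basal cells the highest bitransgenic value, 12.17. The part of sex in the Krt15 values was not tested. Without the X682_11 wild-type array the suprabasal difference was -1.782 and the basal difference -1.145, still not called. The authors' deposited table gave Krt15 a signed fold of -2.733 between suprabasal genotypes, with p = 0.07726 and q = 0.6567.

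The other suprabasal differences between genotypes were -0.28 for Krt5, -0.12 for Krt14, 0.00 for Krt1, -0.09 for Krt10, -0.20 for Krt2 and -0.42 for Krt77. Their 95% intervals all include 0, and that of Krt1 runs from -0.64 to 0.63. For Krt5 and Krt14 the values turn to 0.075 and 0.048 without the X721_05 bitransgenic array. That array also had the highest background mark (8.81), the smallest share of clusters above it (7.1%) and the largest summed melanocyte signal (14.91). The part of these in its Krt5 and Krt14 values was not tested.

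**Figure D3:**
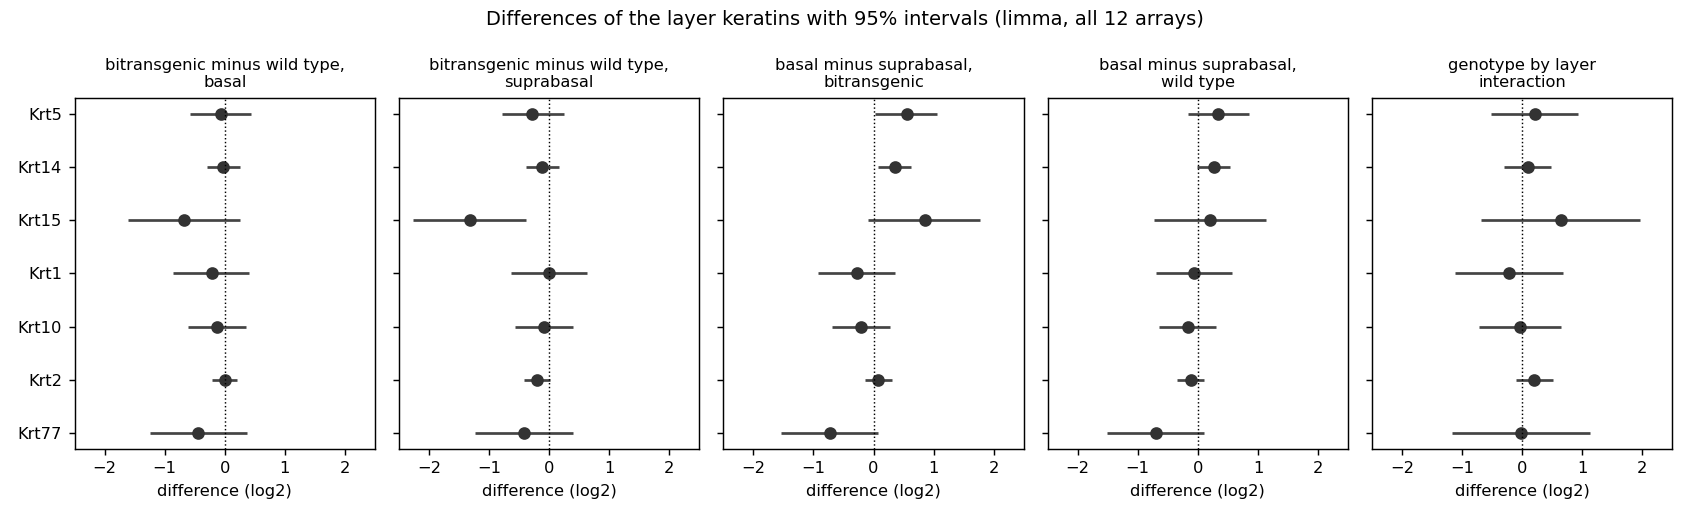
Differences (log2, points) with 95% intervals (lines) of the 7 layer keratins in the 4 pairwise comparisons and the interaction, from limma on 12 arrays. The interval of Krt15 between suprabasal genotypes (-2.26 to -0.39) and those of Krt5 and Krt14 between bitransgenic layers leave out 0, and no difference passed the adjustment over 65956 clusters.

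A signal near the top of an array has little room to be higher. The 203 clusters whose mean lay within 1 log2 unit of the mean highest signal, which include Krt5, Krt14, Krt1 and Krt10, had a median absolute difference of 0.05 between bitransgenic and 0.09 between wild-type layers. The largest of these wild-type differences was 0.37, and 0 of the 203 were called. Krt5 (0.34) and Krt14 (0.27) were near that maximum, above the 90th percentile of 0.159, and Krt10 (-0.17) passed it in absolute size. Their within-group SDs of 0.32, 0.164 and 0.302 were also above the median of 0.085 among the 203. Of the 486 clusters at 1 to 2 units from the top, which include Krt15, 5 were called, as were 28 of the 1831 at 2 to 4 units, which include Krt77. At over 4 units 924 of 63436 (1.46%) were called, with a median absolute difference of 0.12 between wild-type layers, against 0.177 at 2 to 4 units. Most clusters of that last range were at background, since 7.1% to 12.3% of all clusters were above the mark of an array. That range therefore does not tell how differences change with distance from the top. At the overall share of 1.45%, few calls among 203 clusters would be found at any distance. RMA values do not show whether probes of the brightest clusters were saturated.

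**Figure D4:**
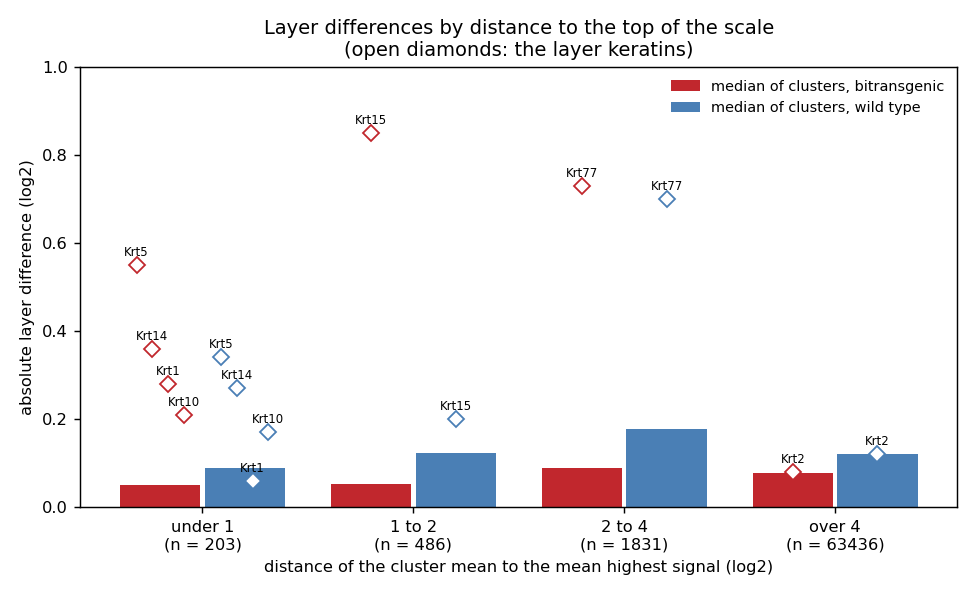
Absolute layer difference (log2) by distance of a cluster's mean to the mean highest signal; bars are medians over all clusters in each range, bitransgenic left of wild type, and open diamonds the layer keratins. Within 1 unit of the top the medians are 0.05 and 0.09, and Krt5, Krt14 and Krt10 lie above them in both genotypes.

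Across arrays the layer keratins formed 2 blocks. Krt5 and Krt14 made 1 block, and Krt1, Krt10 and Krt77 the other, with correlations of 0.93 for Krt1 with Krt10, 0.849 for Krt10 with Krt77 and 0.80 for Krt1 with Krt77 over 12 arrays that share their layers and codes. Between blocks the values were negative and weak to moderate, the furthest being -0.563 for Krt14 with Krt77. Krt15, a basal keratin, correlated at 0.507 with Krt5 and 0.526 with Krt14 over all arrays. After the group means were removed, its values with these were 0.221 and 0.332, against 0.843 with Krt10 and 0.826 with Krt1. Within groups Krt15 went with the suprabasal pair, and the X682_11 arrays of both layers were the lowest wild-type arrays for Krt15, Krt1, Krt10 and Krt77 alike.

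**Figure D5:**
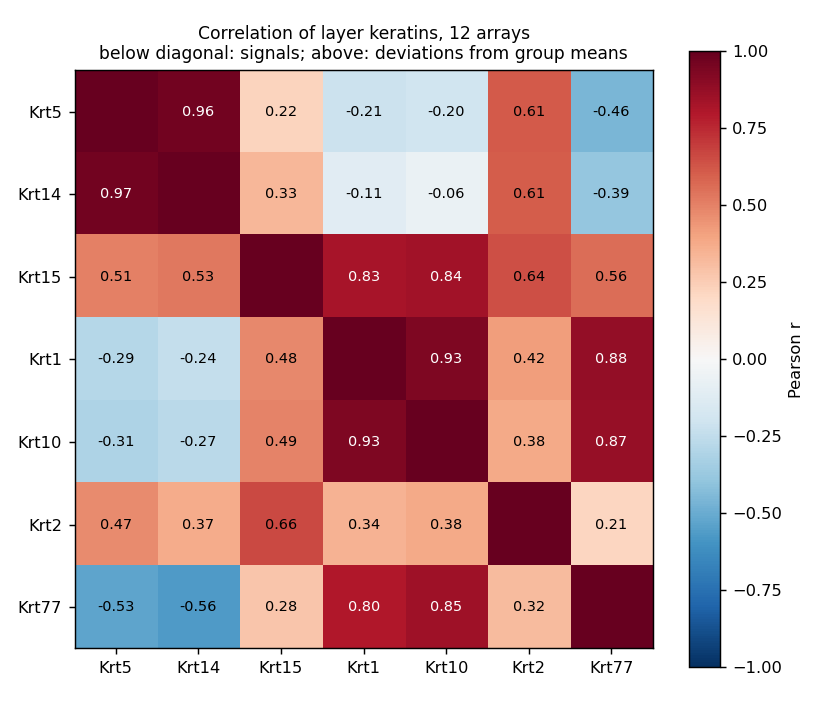
Pearson correlations between the layer keratins over 12 arrays, for the signals below the diagonal and for deviations from group means above it. Krt5 with Krt14 and Krt1 with Krt10 exceed 0.9 on both sides, and Krt15 with Krt10 is 0.49 below and 0.84 above the diagonal.

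The array measures that moved with the members differed between the blocks. Over the 12 arrays Krt1, Krt10 and Krt77 correlated with the background mark at 0.712, 0.666 and 0.62, against -0.467 for Krt5 and -0.35 for Krt14. By rank (Spearman) Krt5 was at -0.063 and Krt14 at -0.028. Within groups Krt1, Krt10 and Krt77 were at 0.722, 0.676 and 0.707, Krt5 at -0.749 and Krt14 at -0.617. Suprabasal bitransgenic X721_05 had both the highest mark (8.81) and the lowest Krt5 and Krt14. The summed melanocyte signal correlated at -0.859 with Krt14 and -0.749 with Krt5. It was not alone in this. The sum of hair follicle epithelium markers was at -0.756 with Krt14 and -0.632 with Krt5, and that of cell cycle markers at 0.788 and 0.704. In suprabasal cells the 3 bitransgenic arrays held Krt14 at 13.26, 13.15 and 12.71 where the melanocyte sum was 11.05, 14.29 and 14.91. The wild-type suprabasal arrays did not keep that order, with Krt14 at 13.29, 13.13 and 13.05 where the sum was 13.17, 14.68 and 14.08. Krt15 within groups had a correlation of -0.924 with the summed signal of hair follicle epithelium markers. Other members went the same way, Krt10 at -0.802, Krt1 at -0.711, Krt2 (at background) at -0.711 and Krt77 at -0.461. Krt14 was at -0.394 and Krt5 at -0.248. The sum ranged over 13.06 to 13.43 in bitransgenic basal and 12.63 to 13.32 in wild-type basal arrays. In suprabasal arrays it was 13.67 to 13.84 in bitransgenic and 13.48 to 13.95 in wild-type cells. Of the 10 markers of that list 6, among them Lgr5 and Lhx2, were above background on no array, and 2 of the list are themselves keratins, Krt17 and Krt79. The part of any of these measures in the keratin values was not tested.

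By Pearson correlation over the 12 arrays, 1851 genes above background on every array were compared with each layer keratin. Besides its partner, Krt5 was most like Slc38a4, an amino acid transporter (0.96), and Egfr, the receptor of epidermal growth factor (0.955). Krt14 was most like Krt5, then Fgfr3, a fibroblast growth factor receptor (0.964), and Phgdh, an enzyme of serine synthesis (0.961). For Krt15 they were Fosl2, an AP-1 subunit (0.975), Apcdd1, an inhibitor of Wnt signalling (0.966), and Psap, the precursor of the saposins (0.954). Krt10 was most like the desmosomal cadherins Dsg1c (0.952) and Dsg1a (0.947), and these followed Krt10 for Krt1 (0.896 and 0.895). Krt77 was most like Igsf3 (0.94), the keratin Krt80 (0.93) and Pld3 (0.927). Krt2, at background throughout, reached 0.77 at most, with Anapc13. Fosl2 had the same order of groups as Krt15, with 9.64 ± 0.13 in bitransgenic and 10.24 ± 0.50 in wild-type basal arrays, and 9.34 ± 0.09 in bitransgenic and 9.94 ± 0.48 in wild-type suprabasal arrays (SD, n = 3 each), and it was not called either.

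The other keratins of the genome were mostly at background. Of 46 listed, 39 were measured under 1 symbol, and 4 were above background on all 12 arrays, namely Krt16 and Krt17 (type I) and Krt79 and Krt80 (type II). Krt73 was above it on 1 array and the other 34 on none. Krt79, known from the follicle's upper part, differed more between layers than the 7, with 9.93 ± 0.50 in basal and 12.18 ± 0.40 in suprabasal wild-type cells. Its difference of -2.25 ± 0.39 passed limma's test (adjusted p = 0.0391), the single call among 15 other type II keratins, and 0 of 24 other type I keratins were called, where 1.45% of all clusters were. With the codes as a random replicate block 5 of the 15 and 2 of the 24 were called, where 3600 of 65956 clusters were. Krt79 was among them (limma's adjusted p = 0.0201). The 2 type I calls, Krt20 and Krt23, were above background on 0 arrays, and just 3 of the 15 type II keratins were above it on any array. The call of Krt79, like every call between wild-type layers, is lost by the test that the series design names (on log2 or unlogged values) and without bitransgenic basal X721_05, wild-type basal X721_08, wild-type suprabasal X682_11 or wild-type suprabasal X721_08, each of which leaves 0 clusters called. Krt16, a keratin of stressed and wounded epidermis, differed by 0.65 ± 0.205 between bitransgenic and wild-type basal cells (limma's adjusted p = 0.263) and by 0.54 ± 0.205 between the suprabasal genotypes (0.866).

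Other genes of the layers give the setting of the keratin values, between wild-type layers where 1.45% of all clusters were called. Of 15 basal-layer genes (hemidesmosome, laminin and integrin genes among them) 0 were called between the wild-type layers, with a median difference of 0.76 against -0.05 over all clusters. Clusters above background on all arrays had a median of 0.113, and 79% of these 4093 were higher in basal cells. The 3 basal-layer genes above background on all arrays had a median of 0.31. The smallest p was that of the integrin Itgb1, at 0.62 with limma's adjusted p = 0.056, and Lamb3, a laminin chain, was at 0.76 (0.104). Of 14 spinous-layer genes 2 were lower in wild-type basal cells, Ly6g6c (-1.86, limma's adjusted p = 0.0421) and Calml3, a calmodulin-like protein (-1.81, 0.0405), and the median was -0.42. Of 15 granular-layer genes 1 was lower, the desquamation protease Klk7 (-2.22, 0.0481), and the median was -0.66. With the codes as a random replicate block 3600 of 65956 clusters were called in wild type. Among them were 1 basal-layer gene (Itgb1, limma's adjusted p = 0.0326), 4 spinous and 2 granular genes. The wild-type calls named here are lost by the design's own test and without any 1 of the 4 arrays named for Krt79. Between the bitransgenic layers the medians were 0.74, -0.27 and -0.89, with 0 called in each list. All clusters had a median of 0.02 there, and those above background on all arrays 0.013. Among 15 filament partners Pkp2, a plakophilin not above background on any array, was the single call between wild-type layers (-0.35, 0.0405). None of 22 regulators of keratin genes was called in any comparison, and the smallest p between wild-type layers was that of Cebpa (-0.20, 0.0605). With the replicate block, where 3600 of 65956 clusters were called, 3 of the 22 were called between wild-type layers, Cebpa (0.0352) and Zfp750 (0.0422) among them. In the comparisons of genotypes 0 members of any of these lists were called.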

How the data were processed

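Labelled RNA of 12 samples was hybridised to Affymetrix MTA-1_0 arrays. The authors deposited log2 signals; the submitters' processing notes name RMA in Affymetrix Expression Console and mm10, and the annotation is NetAffx build 34 per the file headers. RMA equalises array distributions, so a shift shared by most genes would not be seen. Signed fold changes (read as a score), p-values and q-values per comparison come from the authors' deposited table, per the file headers. Of 72688 probe sets, 6732 controls were left out, and 65956 clusters were tested with no filter on dim ones.

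One limma fit of 4 group means gave all comparisons, with Benjamini-Hochberg adjustment over all clusters and calls at adjusted p under 0.05. All 7 members were named in every comparison; other lists were named by up to 4 called members, or the 2 with the smallest p, and likeness by the 3 highest correlations. The members and lists were chosen with earlier results of these data known. The codes pair the layers, a pairing read from the data since no label states it: same-code deviations from group means had r of 0.241 and 0.136 (bitransgenic) and 0.269, 0.533 and 0.37 (wild type). Alternatives tried were a filter on dim clusters, centring, cyclic loess, blocks by code, weights per array, other moderation, a fit of just 2 groups, a sex term, leaving out each array, and the Student test of the series design, on log2 and unlogged values; a term for the background mark was added after seeing the data. The fit was tested on simulated data. The number of arrays limits the precision. R 4.3.3, limma 3.58.1, data.table (1.17.8), Python 3.11.15, pandas 2.3.3, numpy 2.4.6 and matplotlib 3.10.9 were used.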

Additional observations from a re-analysis of the deposited data

How the results depend on the processing

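The count of layer keratins called was 0 of 7 in each comparison under every alternative run and with each array left out. Krt2 drops out under the filter on dim clusters, another cluster per gene could not be tried because each of the 7 has 1, and with the top read as the mean of the 10 highest clusters the mean distance of Krt5 is 0.353, against 0.465. Krt15 between suprabasal genotypes ranged over -1.451 to -1.191 in the alternatives and -1.782 to -1.027 with arrays left out. Between wild-type layers 957 clusters were called (268 higher, 689 lower), against 342 after centring (227 higher, 115 lower), 262 after cyclic loess (130 higher, 132 lower), 195 with the dim filter, 476 with trend and robust moderation, 1860 with array weights, 4 with only the 2 groups, 0 by either Student test and 4387 with the background mark as a term. With the codes as a replicate block, random, 3600 were called, with a fixed block 1312, and 2147 where blocks were set by the code's first number; the block changed no call of a layer keratin, but it did change calls in the other lists. With 1 array left out this count ran between 0 (without bitransgenic basal X721_05, wild-type basal X721_08, or wild-type suprabasal X682_11 or X721_08) and 2903 (without bitransgenic suprabasal X721_05). It was 602 and 131 without bitransgenic basal X667_05 and X722_07, 30 without wild-type basal X682_11, 9 without bitransgenic suprabasal X682_05 and 545 without wild-type suprabasal X667_06. The basal genotype count ran between 0 and 87 (without wild-type basal X667_06) and the bitransgenic layer count between 0 and 126 (without bitransgenic suprabasal X667_05). Small differences changed sign, none of them called, and the cause was not tested. Centring gave 0.05 and 0.033 for Krt1 between suprabasal genotypes and wild-type layers and -0.013 for the interaction of Krt14. Cyclic loess gave 0.001 for Krt14 between basal genotypes, 0.005 for Krt2 between wild-type layers, and interactions of 0.108 for Krt10 and 0.057 for Krt77. Array weights gave 0.014 for Krt2 between basal genotypes, 0.113 for Krt1 between wild-type layers, and interactions of -0.004, -0.002 and 0.08 for Krt5, Krt14 and Krt77. The sex term gave 0.065 and 0.027 for Krt10 and Krt77 between basal genotypes and 0.202, 0.105 and 0.05 for Krt1, Krt10 and Krt77 between suprabasal genotypes. The background term gave 0.005 for Krt10 between basal genotypes, 0.144 and 0.014 for Krt1 and Krt10 between suprabasal genotypes and an interaction of 0.033 for Krt77. With arrays left out, basal genotype differences that crossed 0 ran over -0.063 to 0.007 (Krt14), -0.375 to 0.01 (Krt10) and -0.06 to 0.085 (Krt2), and suprabasal ones over -0.485 to 0.075 (Krt5), -0.227 to 0.048 (Krt14), -0.313 to 0.282 (Krt1) and -0.285 to 0.03 (Krt10). Wild-type layer differences did so over -0.255 to 0.668 (Krt15), -0.373 to 0.222 (Krt1) and -0.365 to 0.075 (Krt10), and interactions over -0.145 to 0.415 (Krt5), -0.075 to 0.20 (Krt14), -0.505 to 0.09 (Krt1), -0.285 to 0.155 (Krt10) and -0.382 to 0.288 (Krt77).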
